A study of Mus musculus with 30 samples.

Results

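The cell cycle and mitosis genes are 40 mouse genes that dividing cells need to copy their DNA and to separate the copies. They were chosen by symbol, and each of the 40 matched exactly 1 Ensembl identifier among the 43629 genes of the deposited count table. Replication is represented by 12 genes: the helicase subunits Mcm2, Mcm3, Mcm4, Mcm5, Mcm6 and Mcm7, their loading factors Cdc6 and Cdt1, the sliding clamp Pcna, and the nucleotide-supply enzymes Rrm1, Rrm2 and Tyms. Mitosis is represented by 26 genes, and the remaining 2 are the cyclin E genes Ccne1 and Ccne2, which act at the entry into DNA synthesis.

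The calli came from male C57BL/6J mice, 20 weeks old at surgery, whose right tibia was broken in an open operation and stabilized with an intramedullary nail. Lean mice received a lean diet and diet-induced obese (DIO) mice a high-fat diet. Calli of lean mice were collected at 4 times (d3, d5, d7 and d10), and those of DIO mice at the same times and also on d14 and d21. Each of these groups held 3 mice, which makes 12 lean and 18 DIO libraries, and later lean calli were not used here. Between 13247122 and 26365620 reads per library were counted on genes (median 16854427). Levels are given as CPM, the count of a gene relative to the library total, scaled with the TMM factors of edgeR, and the 3 values of a group are those of mice 1, 2 and 3 in this order. Each library is 1 mouse, so that the tests rest on the spread between mice of a group, estimated jointly over the groups of a fit. Every gene of the chondrocyte and osteoblast marker lists was detected in each library, and so was the skeletal muscle gene Acta1 (52.7 to 7408 CPM).

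As a cell passes through its cycle, E2F factors switch on the replication genes before DNA synthesis, and the MCM helicase, the clamp and the nucleotide enzymes are then used at the fork. Mitotic genes follow later and depend on the MuvB complex with B-MYB and FOXM1, which acts through a short promoter element called the CHR. In a healing fracture, dividing cells include progenitors and proliferating chondrocytes of the callus and blood-forming precursors of the marrow.

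These elements can be read in the promoters themselves, and 5 are shown because they hold the motifs whose shares are compared between the replication and the mitotic members. Each line gives the 160 bases before the RefSeq start of the gene (GRCm38.p6), read 5′ to 3′ on the strand of the gene, with the motifs found in capitals. Cdc20 lies at chr4:118437344-118437503 on the minus strand, Kif11 at chr19:37376222-37376381 on the plus strand and Plk1 at chr7:122159275-122159434 on the plus strand. Mcm5 lies at chr8:75109349-75109508 on the plus strand and Mcm6 at chr1:128359706-128359865 on the minus strand.
Cdc20: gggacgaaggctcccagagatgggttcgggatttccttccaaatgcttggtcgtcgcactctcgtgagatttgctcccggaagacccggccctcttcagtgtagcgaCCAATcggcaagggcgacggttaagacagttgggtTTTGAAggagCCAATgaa
Kif11: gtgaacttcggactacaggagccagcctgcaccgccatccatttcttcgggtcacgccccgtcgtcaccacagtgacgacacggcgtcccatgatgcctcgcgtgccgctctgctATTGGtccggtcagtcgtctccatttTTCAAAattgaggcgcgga
Plk1: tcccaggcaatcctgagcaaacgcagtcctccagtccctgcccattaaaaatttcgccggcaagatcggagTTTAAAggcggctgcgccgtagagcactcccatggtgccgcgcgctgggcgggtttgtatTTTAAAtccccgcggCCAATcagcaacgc
Mcm5: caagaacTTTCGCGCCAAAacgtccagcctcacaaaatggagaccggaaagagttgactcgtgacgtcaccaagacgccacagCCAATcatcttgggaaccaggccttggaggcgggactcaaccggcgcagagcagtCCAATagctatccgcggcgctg
Mcm6: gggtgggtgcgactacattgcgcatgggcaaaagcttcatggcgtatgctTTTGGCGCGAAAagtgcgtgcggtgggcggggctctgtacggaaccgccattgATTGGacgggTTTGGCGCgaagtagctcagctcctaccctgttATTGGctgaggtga

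Motifs searched on both strands were TTTGAA and TTTAAA (the core letters of the CHR), CCAAT (the site of NF-Y), and an E2F site written as TTTCCCGC, TTTGGCGC, TTTCGCGC or TTTGCCGC. In Cdc20 a TTTGAA lies 18 bases before the start and CCAAT 53 and 8 bases before it. In Kif11 both motifs are on the other strand and are read as TTCAAA and ATTGG, 19 and 45 bases before the start. Plk1 carries TTTAAA 29 bases before the start next to a CCAAT 14 bases before it. The promoters of the helicase genes Mcm5 and Mcm6 have overlapping E2F sites that are read on both strands, and CCAAT boxes, but neither of the CHR letters in the 160 bases shown. Mcm5 does hold a TTTAAA elsewhere in the longer window counted next.

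A promoter entry, from 250 bases before to 50 after the start, was found for 33 of the 40 members, with 11 replication and 21 mitotic genes among them and 27025 genes in all. TTTGAA was present in 16 of the 21 mitotic promoters (76.2%, exact binomial 95% interval 52.8 to 91.8) and in 1 of the 11 replication promoters (9.1%, 0.2 to 41.3), against 20.2% of all promoters. Either CHR core together with CCAAT was present in 18 mitotic promoters (85.7%) and 3 replication promoters (27.3%, that of Mcm5 among them), against 12.2% of all. From 150 bases before to 50 after the start this pair was left in 1 replication promoter (9.1%) and 18 mitotic promoters (85.7%), against 5.9% of all. E2F sites showed the opposite split, with 6 of 11 replication promoters (54.5%), 1 of 21 mitotic promoters (4.8%, that of Cdk1) and 2.6% of all. CCAAT alone was frequent in both classes, in 19 mitotic (90.5%) and 8 replication promoters (72.7%), against 41.1% of all. Such letters are a description of the window and not of binding. Entries for Foxm1, Ccna2, Aurkb, Tpx2, Ccne2, Kif20a and Mcm4 were not used here.

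In the lean callus all 40 members had their highest mean on d3, and 37 had their lowest on d10. The 3 exceptions, Mcm6, Mcm7 and Tyms, were lowest on d5. The summed level of the 40 members started at 3697 ± 947 CPM (SD, n = 3) on d3, went to 2152 ± 329 by d5 and 2424 ± 521 by d7, and ended at 1490.2 ± 446 by d10. In the DIO callus it began at 3021 ± 406 CPM, was 2219 ± 203 by d5, 2512 ± 494 by d7 and 1702.5 ± 302 by d10, and then reached 2390.4 ± 656 by d14 and 7268 ± 1278 by d21. Of the 40, 38 members were highest on d21, with Foxm1 and Plk1 highest on d3, and 35 were lowest on d10. Mcm6, Mcm7, Cdc6, Pcna and Mki67 were lowest on d5 in DIO mice. In these bulk samples, fewer cells of a type and less RNA per cell cannot be told apart.

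**Figure D1:**
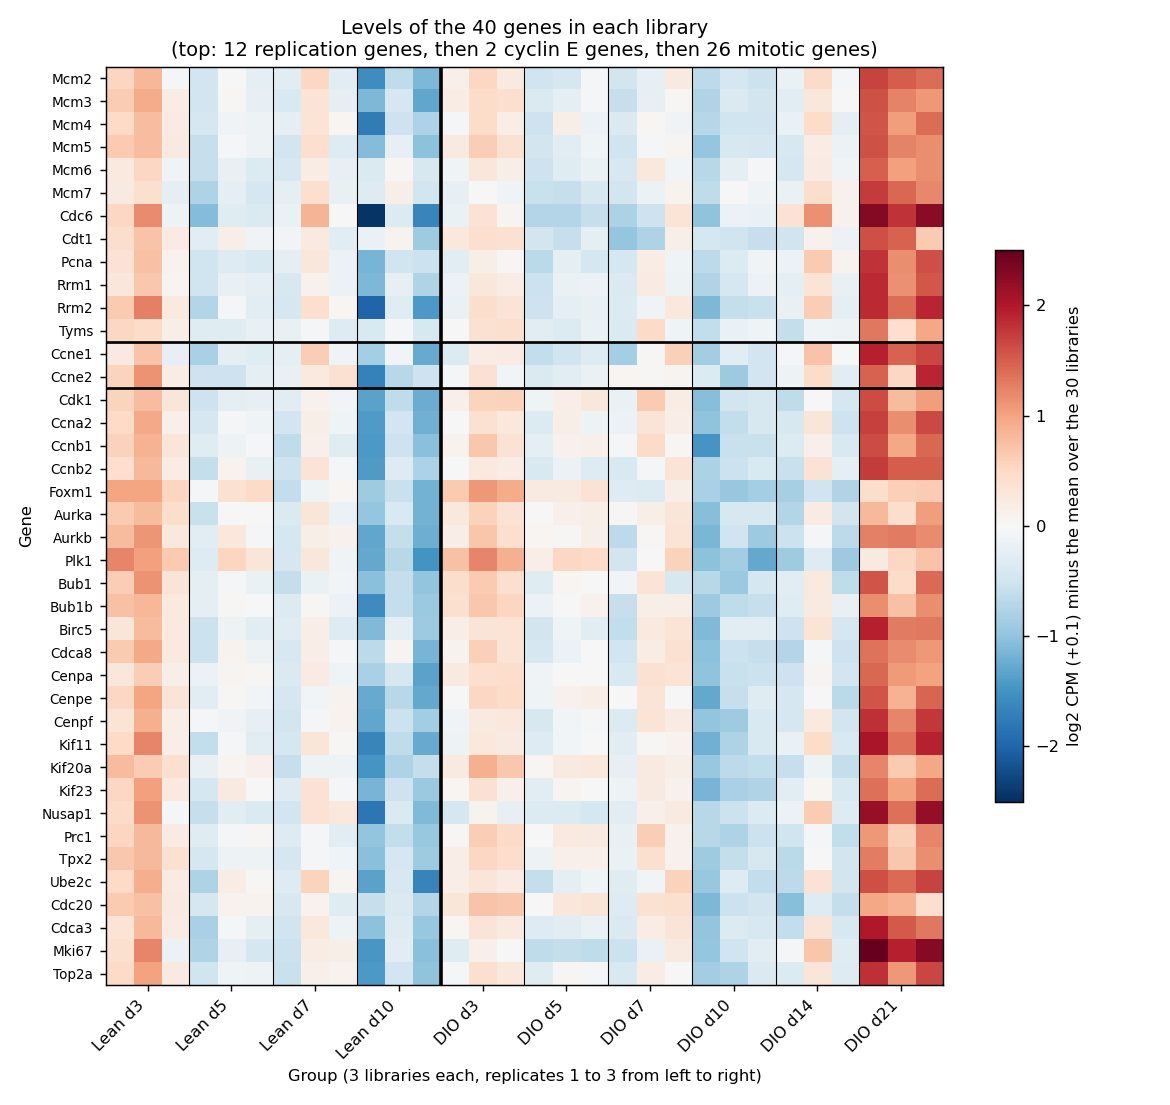
Level of each of the 40 members (rows, replication, then cyclin E, then mitotic genes) in each of the 30 libraries (columns, by diet and day, mice 1 to 3 from left to right), drawn as log2 CPM minus the mean of the gene over the 30 libraries. The 3 DIO d21 libraries are high in nearly every row, and in most rows the d10 mean is the lowest of its diet. Mouse 2 of lean d10 has a higher member sum (1999 CPM) than mouse 1 of lean d5 (1786 CPM) and of lean d7 (1913 CPM).

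Compared per kilobase of annotated exon, Rrm2, a subunit of ribonucleotide reductase, had the highest value on d3 in lean mice with 54.8 CPM per kb, followed by Pcna with 47.8 and the mitotic cyclin gene Ccnb2 with 43.8. The length used merges all annotated exons of a gene and can exceed that of the transcript present, so that the order depends on the annotation. The lowest was the kinetochore gene Cenpf with 3.38 CPM per kb. On d10 in lean mice Pcna led with 22.0 CPM per kb, followed by Mcm6 with 20.4. On d21 in DIO mice the proliferation antigen gene Mki67 led with 132 CPM per kb, ahead of Rrm2 with 107 and Pcna with 105. Ccne2 was lowest there with 7.13.

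Between d3 and d10 in lean mice, 37 of the 40 members fell, against 14.1% of all 16471 genes tested that fell and 15.2% that rose (edgeR quasi-likelihood test, Benjamini-Hochberg adjusted p under 0.05, which is what fell, rose and passed mean hereafter). Their median on the log2 scale was -1.44, where that of all genes was 0.02. All 26 mitotic members fell, with a median of -1.50, and 10 of the 12 replication members, with a median of -1.18. Not passing were Mcm6 (log2 fold change -0.46, edgeR adjusted p = 0.0949), Mcm7 (-0.32, edgeR adjusted p = 0.319) and Ccne1 (-0.92, edgeR adjusted p = 0.0572).

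Among the replication genes, Mcm2 (ENSMUSG00000002870, chromosome 6 from 88883474 to 88898780), a helicase subunit, had 80.9, 99.1 and 53.7 CPM on d3 and 18.98, 36.1 and 25.6 CPM on d10 in lean mice. All d10 values lay below all d3 values, and the log2 fold change was -1.51 ± 0.30 (SE, edgeR adjusted p = 0.00358). Mcm3 and Mcm4, further subunits of the same ring, had log2 fold changes of -1.48 ± 0.27 and -1.42 ± 0.27 (SE, edgeR adjusted p = 0.00271 and 0.00324). Mcm6 belongs to that ring too, but its lean values of 133, 160 and 106 CPM on d3 overlapped with 87.0, 114 and 84.8 CPM on d10. Mcm7 went from 114, 130 and 83.5 CPM to 78.3, 109 and 71.4, and its groups overlapped as well. Whether Mcm6 and Mcm7 differ from the other subunits was not tested.

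Pcna (ENSMUSG00000027342, chromosome 2 from 132249162 to 132253314), the clamp that holds the polymerase on DNA, had 110.5, 143 and 91.1 CPM on d3 and 38.3, 60.5 and 59.4 CPM on d10 in lean mice. The groups did not overlap, with a log2 fold change of -1.10 ± 0.21 (SE, edgeR adjusted p = 0.0031). Rrm2 (ENSMUSG00000020649, chromosome 12 from 24708241 to 24714146) had 139, 212 and 105 CPM on d3 and 21.9, 71.7 and 32.5 CPM on d10. Its d10 values were all lower, with mouse 2 the highest on both days, and the log2 fold change was -1.83 ± 0.41 (SE, edgeR adjusted p = 0.00678).

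For mitosis, the smallest adjusted p-values were those of Prc1, which bundles the microtubules of the central spindle (log2 fold change -1.36 ± 0.17, SE), and Cdk1, the kinase that drives entry into mitosis (-1.58 ± 0.20), both with an edgeR adjusted p of 0.000372. Cdk1 had 97.7, 113 and 81.9 CPM on d3 and 25.996, 42.2 and 27.99 on d10 in lean mice. Prc1 had 103, 125 and 81.4 CPM on d3 and 36.0, 46.0 and 37.0 on d10, and for both genes every d10 value was below every d3 value. Cenpe, a kinetochore motor, had 56.4, 78.3 and 49.2 CPM and then 16.5, 24.4 and 16.1 (-1.67 ± 0.22, edgeR adjusted p = 0.000514). Foxm1, the transcription factor of the mitotic genes, had 83.2, 82.8 and 60.9 CPM and then 22.4, 28.3 and 18.3 (-1.70 ± 0.22, edgeR adjusted p = 0.000528). Of all 40 members the mitotic kinase gene Plk1 had the most negative log2 fold change, from 77.4, 68.1 and 52.5 CPM to 13.6, 20.6 and 11.7 (-2.09 ± 0.28, edgeR adjusted p = 0.000561).

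Other mitotic examples fell to a similar extent. Ccnb1 (ENSMUSG00000041431, chromosome 13 from 100778650 to 100786570), the cyclin partner of CDK1, went from 47.7, 58.3 and 39.5 CPM to 11.7, 22.3 and 15.4 in lean mice (log2 fold change -1.54 ± 0.25, SE, edgeR adjusted p = 0.00151). Top2a (ENSMUSG00000020914, chromosome 11 from 98992943 to 99024189), the topoisomerase that untangles sister chromosomes, went from 211, 303 and 177 CPM to 56.3, 109 and 75.5 (-1.50 ± 0.27, edgeR adjusted p = 0.00267). Mki67 (ENSMUSG00000031004, chromosome 7 from 135689784 to 135716361) went from 359, 639 and 247 CPM to 98.9, 228 and 133 (-1.41 ± 0.37, edgeR adjusted p = 0.0143). In all these genes mouse 2 was the highest on d10 and the groups of d3 and d10 did not overlap.

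**Figure D2:**
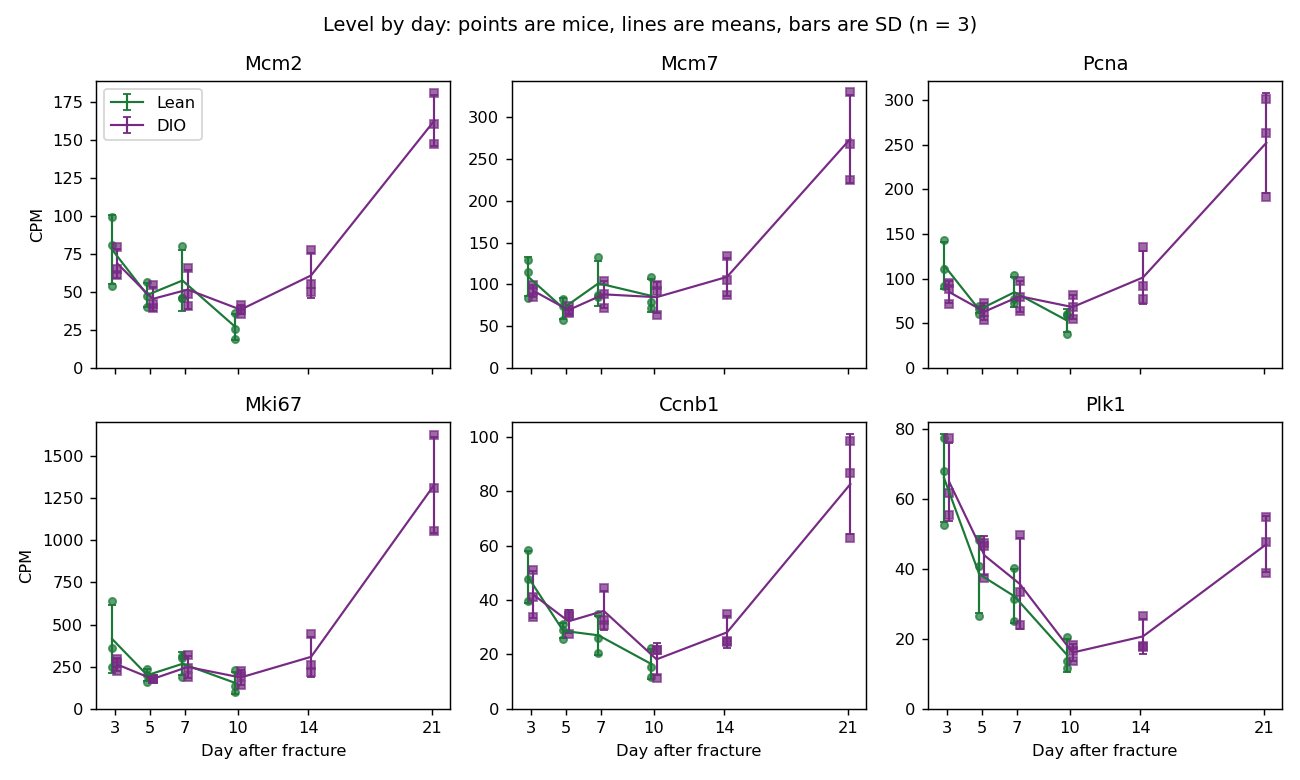
CPM in each library (points) with group means (lines) and SD (bars, n = 3) by day after fracture, in lean and DIO mice, for Mcm2, Mcm7, Pcna, Mki67, Ccnb1 and Plk1. The d3 and d10 values of Mcm7 overlap in both diets, while Plk1 on d21 in DIO mice does not reach above its d3 values.

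Marker genes of other cells moved over the same interval. Of the 10 granulocyte precursor markers, 8 were lower in lean mice on d10 than on d3, with summed levels of 6355 to 13495 CPM on d3 and 184 to 2718 on d10, and their defining genes Mpo and Elane were detected in every library. None of the 9 erythroid markers passed the test (0 of 9, with sums of 111 to 1202 CPM on d3 and 22.6 to 607 on d10), and Hemgn and Rhag were at 0 in a d10 library. All 11 chondrocyte markers were higher on d10. Mouse 1 of lean d10 stood apart, with a chondrocyte sum of 75664 CPM against 17756 and 15685 in mice 2 and 3, the lowest granulocyte precursor sum (184 CPM), the lowest member sum (1169.5 CPM) and a TMM factor of 0.779. Mouse 2 of lean d3 had both the highest member sum (4696 CPM) and the highest granulocyte precursor and erythroid sums of its group, and mouse 2 of lean d10 had all 3 in its group too. Not every group was alike. In DIO d5 mouse 1 had the lowest member sum (1986 CPM) with the highest granulocyte precursor (2010 CPM) and erythroid (56.6 CPM) sums. The part of these cells in the fall was not tested.

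Single steps of the lean course gave few calls. From d3 to d5 all 40 members had lower means, the median log2 value being -0.75, and 38 had an unadjusted p under 0.05, but 0 passed the adjusted threshold, while 0.449% of all genes passed and 0.00607% were lower. The smallest edgeR adjusted p was 0.0651, for the spindle assembly factor Tpx2. From d5 to d7, 29 members had higher means with a median of 0.16, 2 had an unadjusted p under 0.05 and 0 passed (0% of all genes). From d7 to d10 all 40 means were lower again, with a median of -0.75, and 34 had an unadjusted p under 0.05. Here Cdk1 (log2 fold change -0.96 ± 0.20, SE, edgeR adjusted p = 0.0343) and Cenpe (-0.92 ± 0.22, edgeR adjusted p = 0.0467) fell, while 2.73% of all genes passed, 1.65% lower and 1.09% higher. These 2 calls depended on the setting. DESeq2 gave 22, and without mouse 2 of lean d10 edgeR gave 17, but the count was 0 without mouse 1 of lean d3, mouse 2 of lean d5, any mouse of lean d7 or mouse 1 of lean d10. Asked whether any pair of lean days differed, the test passed for 33 of the 40, against 19% of all genes, and for 17 without mouse 2 of lean d3.

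In DIO mice the fall from d3 to d10 was called for 29 of 40 members, against 10.8% of all 16995 genes tested, with a median log2 fold change of -0.87. It comprised 23 of 26 mitotic genes (median -1.02), 6 of 12 replication genes (median -0.66) and neither cyclin E gene. Without mouse 2 of DIO d3 the count was 19. Foxm1 had 65.2, 89.0 and 79.3 CPM on d3 and 23.8, 21.5 and 23.2 CPM on d10, which is -1.76 ± 0.16 on the log2 scale (SE, edgeR adjusted p = 1.49e-06). Plk1 had 55.4, 77.3 and 61.8 CPM and then 16.4, 18.3 and 13.6 (-2.004 ± 0.24, edgeR adjusted p = 3.47e-05). Neither gene overlapped between the days. Ccnb1 went from 33.8, 51.1 and 41.2 CPM to 11.3, 21.7 and 21.5 (-1.20 ± 0.25, edgeR adjusted p = 0.0026).

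Helicase genes that fell in DIO mice between d3 and d10 included Mcm5 (log2 fold change -0.98, edgeR adjusted p = 0.00223) and Mcm2, with 61.4, 79.8 and 65.1 CPM on d3 and 35.3, 41.2 and 38.3 on d10 (-0.84 ± 0.20, edgeR adjusted p = 0.00593). Rrm2 had -0.96 ± 0.24 (SE, adjusted p = 0.00972 by edgeR). Pcna did not pass, with 71.6, 94.7 and 87.9 CPM on d3 and 54.8, 67.9 and 81.2 on d10 (-0.31 ± 0.22, edgeR adjusted p = 0.346). Mcm7 had 85.2, 99.5 and 92.1 CPM on d3 and 63.3, 98.6 and 91.8 on d10, with overlapping groups (-0.12 ± 0.19, edgeR adjusted p = 0.697). Mki67 also overlapped, with 222, 297 and 269 CPM and then 140, 193 and 225 (-0.49 ± 0.26, edgeR adjusted p = 0.18). Granulocyte precursor sums overlapped between these days (1282 to 2401 CPM on d3 and 1381 to 2578 on d10), and 0 of these 10 markers passed, while 6 of 9 erythroid markers were higher on d10.

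Most calls of a single DIO step before d14 lay between d7 and d10. In that interval 17 members fell, all of them mitotic (17 of 26, median log2 fold change -0.77), while 0 of 12 replication genes passed (median -0.32), against 7.01% of all genes that fell and 6.01% that rose. The difference between the classes was not tested. Kif23, a motor of the central spindle, had 33.3, 42.3 and 38.9 CPM on d7 and 16.1, 20.6 and 21.6 on d10 (-0.99 ± 0.17, SE, edgeR adjusted p = 0.000877). Plk1 had 24.003, 33.4 and 49.7 CPM and then 16.4, 18.3 and 13.6 (-1.16 ± 0.24, edgeR adjusted p = 0.00356). Cenpa, the histone of the centromere, had 52.6, 90.0 and 86.8 CPM and then 34.2, 46.7 and 47.0 (-0.85 ± 0.20, edgeR adjusted p = 0.00915). Every d10 value of the 3 genes was below every d7 value. The count of 17 fell to 5 without mouse 2 of DIO d7 or mouse 1 of DIO d10, and to 11 without mouse 3 of DIO d7 or mouse 2 of DIO d10. Of 7 muscle precursor markers 6 fell in the same interval, as did 10 of 11 chondrocyte markers, and their part was not tested.

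Earlier in the DIO course, 1 member fell from d3 to d5, Foxm1 (log2 fold change -0.63 ± 0.15, SE, edgeR adjusted p = 0.0408), while 1.68% of all genes passed and 0.282% were lower. All 40 means were lower on d5, with a median of -0.43, and 16 had an unadjusted p under 0.05. The call of Foxm1 was lost in 8 of the settings that left out a mouse of DIO d3, d5, d10 or d14. From d5 to d7, 0 members passed (0.0177% of all genes), with 33 of 40 means higher. From d10 to d14 all 40 means were higher, with a median of 0.46, 19 had an unadjusted p under 0.05 and 0 passed (0.759% of all genes passed and 0.583% rose), although without mouse 3 of DIO d14 the count was 3.

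From d14 to d21 all 40 members rose in DIO mice, against 19.6% of all genes that passed, 10.6% higher and 9.03% lower, with log2 fold changes from 1.08 (Aurka, a mitotic kinase gene) to 2.12 (Mki67) and a median of 1.47. The median was 1.39 over the replication and 1.60 over the mitotic members. Mki67 had 262, 443 and 221 CPM on d14 and 1625, 1054 and 1312 on d21 (2.12 ± 0.27, SE, edgeR adjusted p = 0.00019). Kif23 had 30.3, 37.8 and 27.9 CPM and then 94.97, 72.7 and 96.0 (1.47 ± 0.17, edgeR adjusted p = 0.000136). Ccnb2 had 32.4, 61.1 and 40.4 CPM and then 160, 135 and 136 (1.70 ± 0.21, edgeR adjusted p = 0.00019). The groups lay far apart in all 3 genes.

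Replication genes rose alongside. Mcm5 had 72.1, 108 and 85.5 CPM on d14 and 288, 223 and 212 on d21 (log2 fold change 1.46 ± 0.20, SE, edgeR adjusted p = 0.000267). Mcm2 had 49.7, 77.9 and 54.9 CPM and then 181, 161 and 147 (1.43 ± 0.20, edgeR adjusted p = 0.000267). Pcna had 77.1, 135 and 91.6 CPM and then 302, 192 and 263 (1.33 ± 0.23, edgeR adjusted p = 0.00101), and Rrm2 had 77.9, 136 and 74.1 CPM and then 321, 234 and 332. No d14 value of these genes reached the lowest d21 value. Mcm7, whose groups overlapped between d3 and d10, went from 87.7, 133 and 105 CPM to 330.0, 268 and 225 (1.34 ± 0.19, edgeR adjusted p = 0.000328).

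Against d3, which shares the d21 libraries with the comparison just given, 35 members were higher on d21 (23.5% of all genes rose), with a median log2 fold change of 1.12. All 12 replication genes (median 1.22), both cyclin E genes and 21 of 26 mitotic genes (median 0.94) passed. Mki67 had the smallest edgeR adjusted p (2.36 ± 0.27, SE, adjusted p = 3.97e-06), followed by the microtubule-binding factor gene Nusap1 with 24.2, 35.2 and 28.7 CPM on d3 and 149, 85.7 and 151 on d21. Cdc6, which loads the helicase, went from 17.2, 24.7 and 20.3 CPM to 94.2, 67.3 and 92.4 (2.05 ± 0.30, edgeR adjusted p = 4.72e-05).

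The 5 members that did not pass were mitotic. Foxm1 had 56.9, 62.9 and 64.9 CPM on d21, below its d3 values (-0.31 ± 0.15, SE, edgeR adjusted p = 0.0975), and Plk1 had 38.8, 47.5 and 54.8 CPM, also below d3 (-0.44 ± 0.23, edgeR adjusted p = 0.135). Kif20a, a motor needed for cell separation, changed by 0.37 on the log2 scale (adjusted p = 0.12 by edgeR), Aurka by 0.40 (adjusted p = 0.14) and Cdc20, which activates the anaphase ubiquitin ligase, by 0.22 (adjusted p = 0.445).

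**Figure D3:**
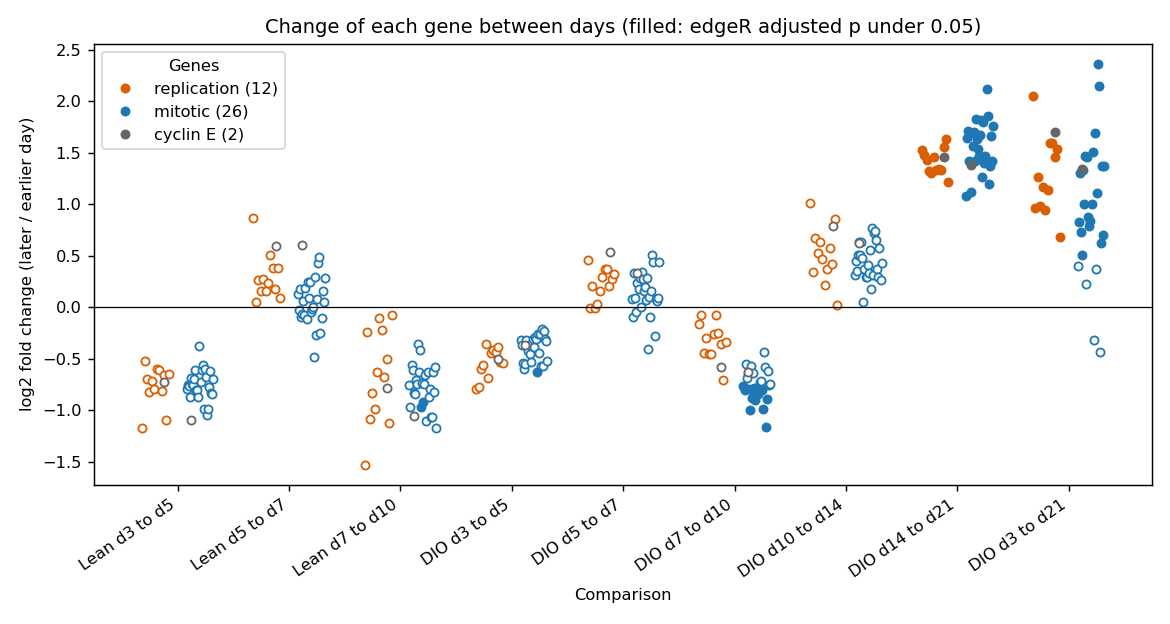
Log2 fold change (later over earlier day, edgeR) of each of the 40 members in 9 comparisons of days, with replication genes in orange, mitotic genes in blue and cyclin E genes in grey, and filled points for an adjusted p under 0.05. From d14 to d21 in DIO mice all 40 are filled and lie between 1.08 and 2.12, and from d7 to d10 in DIO mice the 17 filled points are mitotic genes.

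Erythroid, B lineage precursor and adipocyte markers were at their highest in the same 3 libraries. The adipocyte markers summed to 845 to 950 CPM on d21 and to 507 to 735 CPM on d14. The erythroid markers summed to 5701, 4899 and 4757 CPM on d21 and to 20.9 to 1814 CPM in every other library, and 6 of 9 rose from d14 to d21, with the defining gene Alas2 at 1420, 1448 and 1231 CPM on d21. All 10 granulocyte precursor markers rose, to sums of 14223, 7091 and 7549 CPM from 1320.3 to 3870.2 on d14. Of 12 B lineage precursor markers, 3 rose (692 to 976 CPM in sum, from 281 to 513 on d14). None of these lists had a gene at 0 on d14 or d21. Fibroblast and progenitor markers moved the other way, with 6 of 8 lower and sums of 1522 to 2807 CPM against 3941 to 4239 on d14. Within d14, mouse 2 had the highest member sum (3147 CPM) and the highest erythroid sum (1814 CPM). The part of these cells in the rise of the members was not tested.

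**Figure D4:**
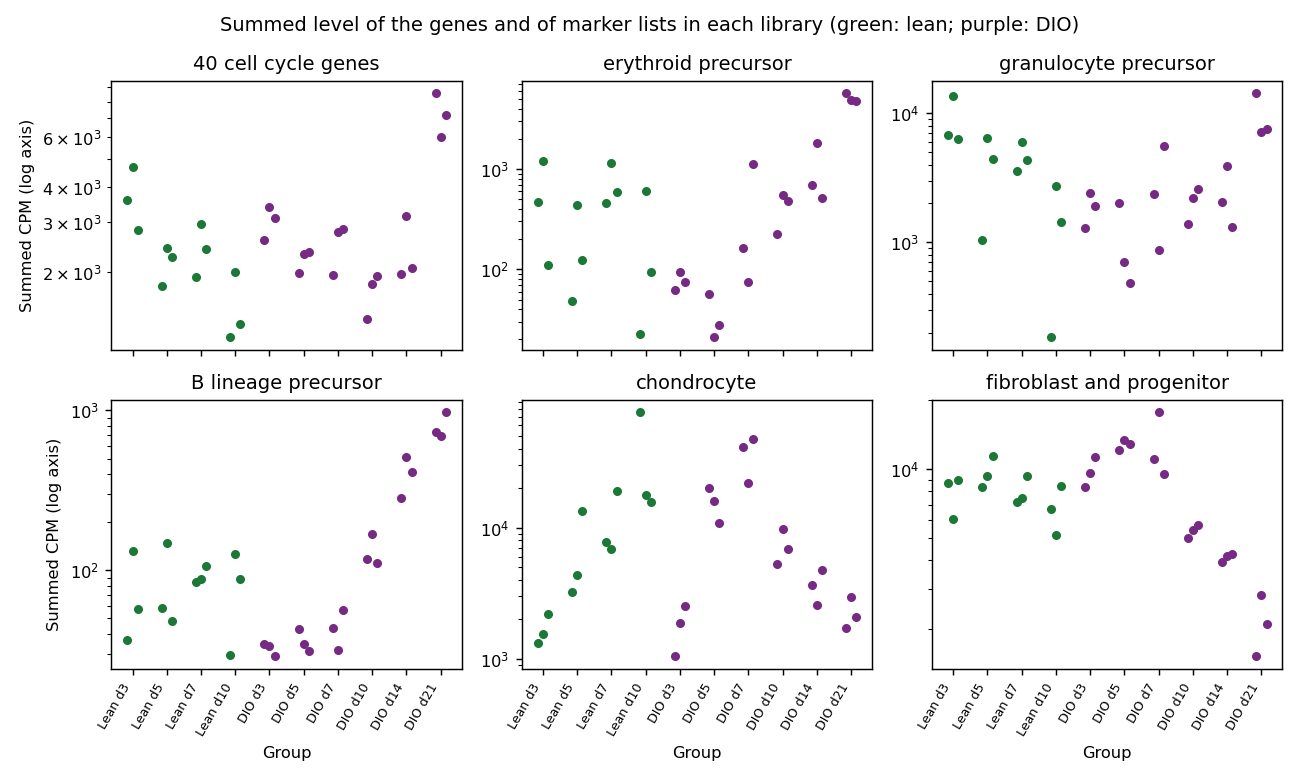
Summed CPM of the 40 members and of marker lists of other cell types in each library (points), by diet and day, on log axes. The d21 libraries of DIO mice are the highest for the members and for erythroid and B lineage precursor markers.

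Replication and mitotic genes were then set against each other within each library, as the mean log2 CPM of the 12 replication genes minus that of the 26 mitotic genes. In lean mice this difference was 0.175, 0.142 and 0.109 on d3 and 0.387, 0.521 and 0.470 on d10, with no overlap. In DIO mice it was 0.143, 0.134 and 0.129 on d3, -0.015, -0.060 and 0.047 on d5, 0.085, 0.014 and 0.134 on d7, and 0.535, 0.558 and 0.496 on d10. It stayed high at 0.552, 0.550 and 0.696 on d14 and 0.510, 0.507 and 0.316 on d21. In both diets the mean of the mitotic genes was therefore further below its d3 level on d10 than that of the replication genes. The means changed by 0.317 from d3 to d10 in lean mice, by 0.394 in DIO mice, and by 0.309 from d3 to d21 in DIO mice, where the SD between mice of a group was 0.078 when pooled over groups. On d7 the lean values of 0.438, 0.487 and 0.179 all lay above the DIO values, as they did on d5 (0.145, 0.139 and 0.114). No test was made on this score, which is a description.

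**Figure D5:**
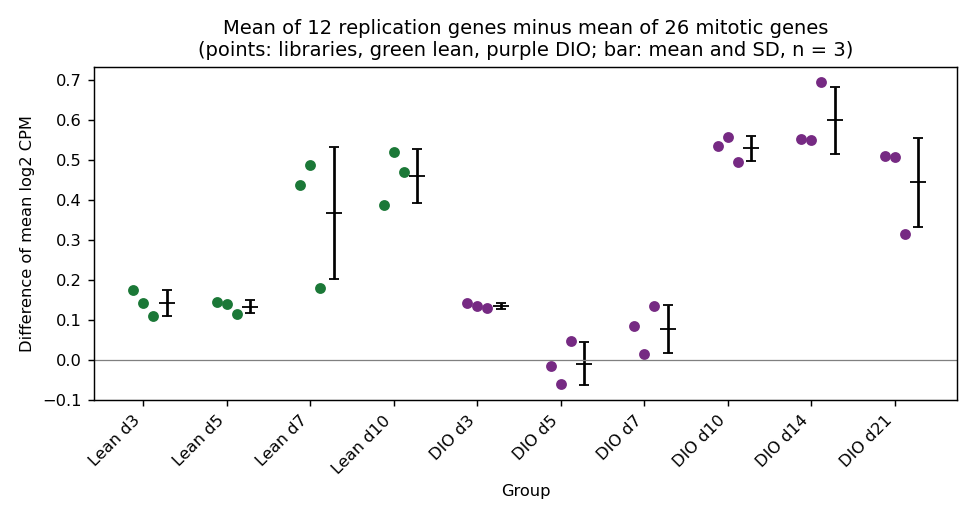
Mean log2 CPM of the 12 replication genes minus that of the 26 mitotic genes in each library (points), with the group mean and SD (n = 3 mice), by diet and day. Lean d3 lies between 0.109 and 0.175 and lean d10 between 0.387 and 0.521, and DIO mice change between d7 and d10.

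Between the diets no member passed the test on any day. On d3, 38 of 40 means were lower in DIO mice with a median log2 difference of -0.27, and 2 members had an unadjusted p under 0.05, but 0 passed (0% of all 15772 genes). The smallest adjusted p was that of Nusap1, with 45.7, 72.2 and 31.9 CPM in lean and 24.2, 35.2 and 28.7 CPM in DIO mice (-0.78 ± 0.28, SE, edgeR adjusted p = 0.253), and Mki67 differed by -0.68 ± 0.31 (edgeR adjusted p = 0.355), both with overlapping groups. Granulocyte precursor sums on that day were 6355 to 13495 CPM in lean and 1282 to 2401 CPM in DIO mice. On d5 and d7 the means of 25 members were higher in DIO mice and 0 passed, against 1.08% of all genes on d5 (0.134% higher, 0.948% lower) and 2.32% on d7 (1.4% higher, 0.92% lower), with the smallest edgeR adjusted p at 0.155 for Cdk1 on d5 (0.44 ± 0.14). On d10, 32 means were higher in DIO mice with a median of 0.21 and 0 passed (0% of all genes), the smallest edgeR adjusted p being 0.686 for Mcm2 (0.52 ± 0.24).

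Whether the diet difference itself changed from one day to another was tested over 24 libraries, and passed for 0 members from d3 to d5 (0% of 17057 genes), from d5 to d7 (0.00586%), from d7 to d10 (5.07%, of which 1.7% positive and 3.37% negative) and from d3 to d10 (0.00586%). From d3 to d10 it was positive for 37 of 40 members, with a median of 0.46, and 7 had an unadjusted p under 0.05. A positive value is in the direction of a smaller fall in DIO mice. The smallest edgeR adjusted p was 0.145 for Nusap1 (1.24 ± 0.42, SE). Members varied together between mice of a group, so that counts of members by sign, here and above, are not counts of separate observations. All 29 members that fell from d3 to d10 in DIO mice also fell in lean mice, and 8 passed in lean mice alone. Such a count does not show a difference between the diets, since the test of the change itself passed for none.

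Other genes of the pathway, taken from lists of named factors, were counted in the same fits. Of 43 other replication factors, 27 fell and 0 rose in lean mice from d3 to d10, 19 fell and 0 rose in DIO mice, and 40 rose from d14 to d21. Of all genes, 14.1% fell and 15.2% rose in the lean comparison, 10.8% fell and 11.1% rose in DIO mice from d3 to d10, and 10.6% rose and 9.03% fell from d14 to d21, which is the background of the list counts in these comparisons. Cdc7 and Dbf4, the kinase that fires origins and its activator, had log2 fold changes of -1.77 ± 0.21 and -1.45 ± 0.18 (SE) in lean mice (edgeR adjusted p = 0.00026 and 0.000393). Of 52 other mitotic factors, 50 fell in lean mice from d3 to d10 and 1 rose, and in DIO mice 45 fell and 1 rose. The 1 that rose in lean mice was Pttg1, which encodes securin, at 0.52 on the log2 scale (edgeR adjusted p = 0.035). From d7 to d10 in DIO mice 26 of the 52 fell, against 7.01% of all genes, and from d14 to d21, 50 rose.

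Inhibitors of the cyclin-dependent kinases did not all move one way in lean mice. Of the 7, 3 were higher and 2 lower on d10 than on d3. Among these, the calls of Cdkn2b, Cdkn2d and Cdkn2c were lost in 10, 6 and 3 of the alternative settings. Cdkn1c, which encodes p57, had 29.5, 14.7 and 16.4 CPM on d3 and 153, 99.6 and 64.7 CPM on d10 (log2 fold change 2.41 ± 0.38, SE, edgeR adjusted p = 0.00128). Cdkn1a, which encodes p21, had 171, 127 and 172 CPM and then 576, 317 and 332 (1.40 ± 0.24, edgeR adjusted p = 0.00177). Both were higher in every lean d10 mouse than in any d3 mouse. In DIO mice 0 of the 7 passed from d3 to d10 (Cdkn1c 0.93 ± 0.36, edgeR adjusted p = 0.0695), and from d7 to d10 Cdkn1c fell, with a log2 value of -1.71 ± 0.36 (adjusted p = 0.00362 by edgeR). From d14 to d21 Cdkn1b, Cdkn2c and Cdkn2d rose.

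Of the 6 genes for D-type cyclins and their kinases with CDK2, Cdk2 and Ccnd3 fell in lean mice from d3 to d10 (log2 values of -1.37 and -0.74, adjusted p = 0.000814 and 0.046 by edgeR). The lean call of Ccnd3 was lost in 8 of the alternative settings. On d21 against d3 in DIO mice Ccnd1, the cyclin that links growth signals to the cycle, was lower, with 135, 187 and 152 CPM on d3 and 30.4, 46.3 and 43.1 on d21 (-1.96 ± 0.22, SE, edgeR adjusted p = 3.62e-06), while Ccnd3 was higher (1.37 ± 0.27, edgeR adjusted p = 0.000556). These D-type cyclin genes thus moved in opposite directions when the 35 members rose.

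Among 19 RB, E2F and MYB family genes, 10 fell and 1 rose in lean mice from d3 to d10, 10 fell and 0 rose in DIO mice, and 12 rose from d14 to d21. In DIO mice the d3 to d10 calls of Lin9, Mybl1 and E2f3 were lost in 21, 14 and 11 of the alternative settings. E2f1 went from 48.4, 50.4 and 45.4 CPM to 20.6, 26.7 and 20.2 in lean mice (log2 fold change -1.07 ± 0.21, SE, edgeR adjusted p = 0.00341). Mybl2, which encodes B-MYB, went from 31.7, 42.7 and 24.1 CPM to 16.1, 21.6 and 9.33 (-1.04 ± 0.33, edgeR adjusted p = 0.0348). That call of Mybl2 was lost in 4 of the alternative settings. On d21 against d3 in DIO mice the genes that rose included Tfdp2, a partner of the E2F proteins (3.76 ± 0.30, edgeR adjusted p = 3.14e-07), and E2f2 (3.69 ± 0.52, edgeR adjusted p = 2.82e-05).

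The members followed each other closely. Over the 30 libraries the median Pearson r between pairs was 0.900 within the replication genes, 0.918 within the mitotic genes and 0.875 between the classes. This is a description only, since the libraries of a group share diet and day. Without the 3 d21 libraries these values were 0.813, 0.895 and 0.796. As deviations from the group means over the 30 libraries they were 0.777, 0.779 and 0.775, so that pairs within and between the classes were then nearly alike. Least like the mean profile of the members were Plk1 (0.743) and Foxm1 (0.745), and over 27 libraries Mcm7 (0.607). Of 17317 genes, the 10 non-members most like that profile were Dlgap5 (0.983), Kif22 (0.979), Sgo1 (0.975), Clspn (0.973), Nek2 (0.973), Spag5 (0.972), Asf1b (0.971), Brca1 (0.970), Kif15 (0.969) and Kif4 (0.969).

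Several members share sequence with other genes. Ube2c, a ubiquitin-conjugating enzyme gene of anaphase, has 22.77% of its exons overlapped on the opposite strand by the muscle gene Tnnc2, whose level ran from 43.9 to 2852 CPM. Opposite-strand overlaps also cover 29.3% of Kif20a (Cdc23), 17.42% of Ccne2 (Ints8), 12.49% of Ccna2 (Exosc9), 11.08% of Prc1 (Rccd1) and 8.7% of Mcm7 (Cops6 and Ap4m1). The libraries were made with a stranded kit. A stretch of at least 100 bases with 95% identity in another gene was found for 28 of the 40, among them processed copies of Mcm7 (Gm5487, 2157 bases), Cdc6 (Gm9430, 1528 bases), Ccnb1 (Ccnb1-ps, 1287 bases), Pcna (Pcna-ps2, 781 bases) and Tyms (Tyms-ps, 677 bases), so that their counts are uncertain to the extent that reads were shared. The 28 also include members matched only to the gene that overlaps them, such as Kif20a (Cdc23), Ccne2 (Ints8) and Ccna2 (Exosc9).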

How the data were processed

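RNA of 30 calli was measured by stranded mRNA sequencing. The authors trimmed the reads with BBDuk, aligned them to GRCm38 with HISAT2 2.1.0 and counted them on genes with HTSeq, and the deposited values are raw counts. For HTSeq, the version, the strand option and the annotation are not given in the sources used here. Of the 43629 genes, 42548 were matched to GENCODE M21 for symbols, positions and exon lengths.

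The members and lists were chosen with earlier results of these data known. The main test was the quasi-likelihood test of edgeR 4.0.16, two-sided, in R 4.3.3 with limma 3.58.1, after filterByExpr and TMM scaling, adjusted by Benjamini-Hochberg over all genes of a fit at a threshold of 0.05. Lean days were compared in 1 fit of 12 libraries, DIO days in 1 fit of 18, diets within a day over 6, and the change of the diet difference over 24. Log2 CPM used a prior count of 2. Values in every library were planned for the members with the smallest adjusted p of a comparison (at most 4 replication and 4 mitotic). They were also planned for Mki67, Top2a, Ccnb1, Mcm2, Pcna and Rrm2. Of a pathway list at most 4 genes by the same order were planned, with Cdkn1a, Cdkn1c, Ccnd1, E2f1 and Mybl2. The text does not print all of them: in some comparisons such a gene has only a fold change or is not given. Values given outside this rule, such as those of Mcm6, and of Mcm7 between d3 and d10, were chosen after they were seen. Marker lists were planned as summed CPM only, but the counts of markers that were higher, lower or passed come from the edgeR calls of the same fits. Of the 300 listed genes, 299 matched 1 identifier.

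The alternatives comprised DESeq2 1.42.0, size factors by RLE or upper quartile, no low-count filter, a filter of 1 CPM in 3 libraries, the replicate block, all 30 libraries in 1 fit, and each mouse left out. The test was tested on simulated data. No pair of libraries of a group agreed within sampling noise. Near-identical stretches were found with BLAST 2.17.0, and promoter sequences came from RefSeq (GRCm38.p6). Intervals of motif shares cover counting error only.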

Additional observations from a re-analysis of the deposited data

Results flagged for a closer look

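From d7 to d10 the diet difference of 3 genes of the pathway lists (which hold 43, 52, 7, 6 and 19 genes), none of them a member, changed past the threshold (edgeR interaction test over 24 libraries), where 5.07% of all genes did, so that their share is below that of all genes. For Cdkn1c the change was -2.17 on the log2 scale (adjusted p = 0.0217), with lean values of 73.2, 58.0 and 98.5 CPM on d7 and 153, 99.6 and 64.7 on d10, and DIO values of 222, 82.7 and 134 and then 35.2, 55.3 and 44.4. For Cdk2 it was 0.87 (adjusted p = 0.0394), with lean values of 50.3, 58.0 and 60.4 CPM and then 23.9, 36.6 and 26.8, and DIO values of 37.9, 47.6 and 46.6 and then 40.8, 42.0 and 42.0. For E2f6 it was 0.835 (adjusted p = 0.0444), with lean values of 32.5, 23.7 and 27.6 CPM and then 27.8, 25.5 and 24.3, and DIO values of 24.8, 26.7 and 24.2 CPM and then 42.2, 46.7 and 36.2. The call of Cdkn1c was lost without mouse 2 of lean d7, mouse 1 of lean d10, mouse 1 of DIO d7 or mouse 1 of DIO d10, and those of Cdk2 and E2f6 in 11 and 20 settings.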

How the results depend on the processing

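Of the member counts, those of DIO d14 to d21 (40) and of any DIO day (40) were the same in every setting that left out a mouse. In the test of any DIO day 59.1% of all 16995 genes passed, so that most genes were called there. No member call of the 161 in single comparisons was reversed in any alternative. Without a low-count filter 2 members passed from d3 to d5 and 7 from d7 to d10 in lean mice, and 3 from d10 to d14 in DIO mice. DESeq2 gave 10 and 22 for the lean intervals, 2 from d3 to d5 and 3 from d10 to d14 in DIO mice. All 30 libraries in 1 fit gave 1 and 21 for the lean intervals and 0 from d3 to d5 in DIO mice. With the replicate block the lean counts were 7 and 28, while replicate numbers label different mice and do not pair them (mean correlation of same-numbered deviations 0.127 in lean and -0.018 in DIO libraries), and the other counts stayed within 1.5 times. Leaving out each mouse gave 33 to 39 members from d3 to d10, 0 to 4 from d3 to d5, 0 to 17 from d7 to d10 and 17 to 36 for any day in lean mice. In DIO mice it gave 19 to 30 from d3 to d10 (19 without mouse 2 of DIO d3), 29 to 35 from d3 to d21, 0 to 1 from d3 to d5, 5 to 21 from d7 to d10 and 0 to 3 from d10 to d14. The change of the diet difference gave 0 to 3 from d3 to d10 and 0 to 1 from d7 to d10, both without mouse 2 of lean d10. The lean d3 to d5 count was 4 without mouse 1 and 1 without mouse 2 of lean d10, and the d7 to d10 count was 0 without mouse 1 of lean d3, mouse 2 of lean d5, any mouse of lean d7 or mouse 1 of lean d10. The cause was not tested. The spread between 3 mice limits the precision.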
